A study of Mus musculus with 30 samples.

Results

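The lymph nodes of asymptomatic Tg26 mice were compared with those of FVB/N mice, on 9 of the 30 arrays of a study of lymphoma of B cells in mice with an HIV-1 transgene. The 9 arrays were chosen by their labels, which gave lymph node as the tissue and either no tumour or control as the state, and each array was 1 mouse (6 asymptomatic Tg26, 3 FVB/N). Tg26 mice carry a pNL4-3 HIV-1 provirus that lacks part of gag and pol and makes no infectious virus. Per the labels the Tg26 animals were heterozygous, on the FVB/N background, from a colony founded on parents with skin lesions. FVB/N mice, the background strain, were the controls. The labels give 5 to 12 months as the age of all mice, with no age or sex for a single mouse, and a lymphoma incidence of about 15% in Tg26. They do not say which node was taken or whether mice were littermates, and levels of the provirus were not analysed here. Spleens of the same 9 mice are set beside the node differences. These spleens and the arrays of the lymphoma mice also entered the estimate of spread and the surrogate variables described below. The lymphoma nodes further entered the measure of links to neighbouring tissue.

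A lymph node filters lymph draining from a region of the body and brings lymphocytes together with the cells that show them antigen. Class II molecules present antigen to CD4+ T cells, macrophages of the sinuses take up what the lymph carries, and endothelium and fibroblasts build the vessels and the scaffold. Tg26 mice express viral genes without infection, and in the asymptomatic animals no tumour had been seen.

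Total RNA was hybridised to Affymetrix Mouse Gene 1.0 ST arrays, which read a transcript with probes spread along its length. Every level below is a deposited log2 value, so that a difference of 1 is a 2-fold change, and levels of different genes cannot be set against each other. The number of arrays limits the precision. The labels place mice 1 to 3 of every state in batch A and mice 4 to 6 of the asymptomatic state in batch B, which holds no FVB/N mouse. Within the asymptomatic state, batch B nodes differed from batch A nodes at 2218 of 19938 genes (11.1%, limma without surrogate variables), and what the batch adds cannot be told apart from what differs between those mice. The X-inactivation transcript Xist ran from 4.67 to 5.69 in asymptomatic nodes and from 4.66 to 5.06 in FVB/N nodes. The Y-linked gene Eif2s3y ran from 8.64 to 9.32 in asymptomatic nodes and from 9.13 to 9.62 in FVB/N nodes. Uty, also Y-linked, ran from 7.47 to 8.25 and from 8.27 to 8.40, without overlap. In the nodes of lymphoma mice 3 and 5, Xist was at 11.93 and 10.91 and Eif2s3y at 3.86 and 3.85. None of the nodes compared here had such high Xist and low Eif2s3y.

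Several nodes carried transcripts of other organs, and the nodes differed in this from mouse to mouse. The mean level of 20 salivary and lacrimal gland genes was 7.22 and 8.07 in asymptomatic mice 2 and 3 and between 5.67 and 5.96 in the other 4 asymptomatic nodes, against 5.49, 9.99 and 8.10 in FVB/N mice 1, 2 and 3. The mean of 22 exocrine pancreas genes was 11.45 and 12.98 in asymptomatic mice 5 and 6, and between 5.69 and 6.07 in the other 7 nodes. The mean of 22 adipose genes was 9.28, 10.78, 10.95 and 10.96 in asymptomatic mice 2, 3, 4 and 5 and 7.14 and 7.38 in mice 1 and 6, against 6.58, 8.69 and 7.22 in FVB/N mice 1, 2 and 3. Adipose transcripts were thus higher in 4 of 6 asymptomatic nodes than in any FVB/N node, salivary transcripts were highest in an FVB/N node, and pancreas transcripts were high in 2 asymptomatic nodes of batch B. Skeletal muscle genes averaged 8.60 in asymptomatic mouse 3 and 8.75 in FVB/N mouse 2, and from 6.23 to 7.63 in the others.

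The node of asymptomatic mouse 1 and that of FVB/N mouse 1 stood apart from the other 7, and no pair of nodes was more alike (r = 0.985 across genes). Macrophage genes averaged 7.30 in the node of asymptomatic mouse 1 and 7.21 in that of FVB/N mouse 1, against 8.83 to 9.18 in the other asymptomatic nodes and 8.46 to 8.73 in the other FVB/N nodes. Collagen and matrix genes averaged 7.30 and 6.8 in the same pair, against 8.0 to 8.63 in the other asymptomatic nodes and 8.38 to 8.41 in the other FVB/N nodes. T lineage genes were higher in the pair, at 10.59 and 10.76, against 8.74 to 9.72 in the other asymptomatic nodes and 9.08 to 9.87 in the other FVB/N nodes. Of the genes measured, 3742 (18.8%) were higher in both nodes of the pair than in each of the other 7, and 1945 (9.76%) were lower. In whole tissue, fewer cells of a type and less RNA per cell cannot be told apart.

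**Figure D1:**
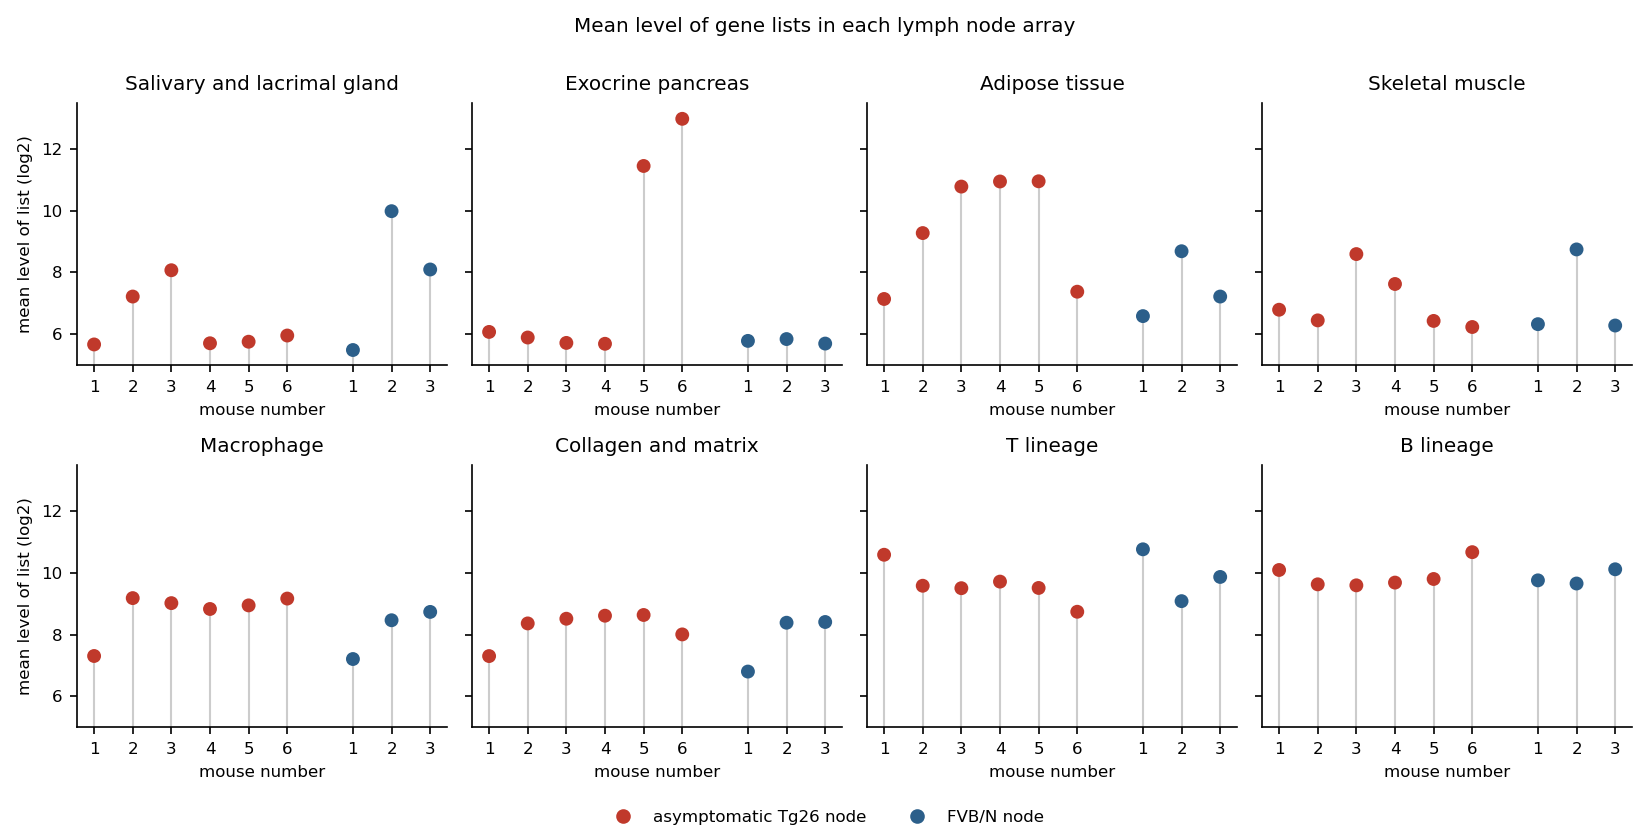
Mean log2 level (vertical axis) of the genes of each list in each of the 9 lymph node arrays, by mouse number (horizontal axis), with asymptomatic Tg26 nodes left of FVB/N nodes. Each point is 1 array. Pancreas genes stand high in asymptomatic mice 5 and 6 (11.45 and 12.98), salivary genes are highest in FVB/N mouse 2 (9.99), and macrophage genes are lowest in mouse 1 of both groups (7.30 and 7.21).

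The fit included 6 surrogate variables, per-array covariates estimated from the data to stand for variation that the groups do not explain, as the series' design text describes for the study. The first correlated at 0.955 with batch B and 0.596 with the pancreas mean. The second correlated at 0.829 with the salivary and 0.779 with the adipose mean, and the third at 0.651 with the pancreas mean. Fitted differences are thus adjusted in part for batch and neighbouring tissue, but not evenly. From measured to fitted, the median difference of the list went from 2.21 to 0.09 for pancreas and from -1.24 to -0.86 for salivary gland. For adipose it went from 1.96 to 2.16, so the adipose difference was not reduced. With the surrogate variables, 386 of 19938 genes differed between asymptomatic and FVB/N nodes (1.94%, limma, Benjamini-Hochberg adjusted p under 0.05). Of these, 268 were higher (1.34%) and 118 lower (0.592%) in asymptomatic nodes. At an unadjusted p under 0.05 the counts were 3186 genes (16%), 1787 higher (8.96%) and 1399 lower (7.02%). The levels of 503 genes (2.52%) did not overlap between the 6 asymptomatic and the 3 FVB/N nodes, and 49 of these were among the 386. The count of calls rested on the surrogate variables: without them 13 genes passed (0.0652%, 6 higher and 7 lower), all among the 386, and with batch as a term in their place 8 passed. Among the 9 node arrays alone 0 genes passed in limma, where 1049 had an unadjusted p under 0.05, and among the 6 batch A arrays 0 passed without mouse number as a block (453 at an unadjusted p under 0.05) and 0 with it (987). Without FVB/N mouse 2 the count was 40, without asymptomatic mouse 3 it was 76, without asymptomatic mouse 2 or 4 it was 212 or 217, and without asymptomatic mouse 1 it was 782. Without mouse 1 of both groups, the pair that stood apart, 420 genes passed, 235 of them among the 386. Without FVB/N mice 2 and 3, the nodes with the most salivary transcripts of their group, 0 passed in limma and 1308 had an unadjusted p under 0.05.

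Genes linked to adipose tissue made up the largest group of calls linked to a neighbouring tissue, while 181 of the 386 calls had no such link. A gene was counted as linked to a neighbouring tissue when its deviations from the group means over the 15 nodes of the study correlated at r of 0.7 or more with the mean of the adipose, salivary or pancreas list. By that measure 174 of the 386 were linked to adipose, all of them higher in asymptomatic nodes, 27 to salivary gland (26 lower) and 4 to pancreas. In all, 205 of the 386 calls were linked (53.1%), against 1467 of all 19938 genes (7.36%). Of the 22 adipose genes, 19 were called higher, where 1.34% of all genes were. Their median fitted difference was 2.16, against 0.02 over all genes. Ucp1, the uncoupling protein of brown fat, was at 5.93, 10.70 and 12.08 (lowest, median and highest) in asymptomatic nodes, against 5.74, 8.89 and 4.91 in nodes 1, 2 and 3 of the FVB/N mice. The ranges overlapped, since asymptomatic mice 1 and 6 were at 5.93 and 6.84, and the fit gave 3.25 (SE 0.62, adjusted p = 0.0084). Adipoq, the adipocyte hormone adiponectin, was at 4.93, 9.26 and 10.82 in asymptomatic nodes, against 4.66, 7.07 and 5.46 in FVB/N nodes, and differed by 2.72 (SE 0.55, adjusted p = 0.0118). It was again high in asymptomatic mice 2 to 5 and low in mice 1 and 6. Pparg, the nuclear receptor of adipocyte differentiation, differed by 1.63 (SE 0.24, adjusted p = 0.00242). Gpd1, which supplies the glycerol backbone of fats, differed by 2.48, and Car3, a carbonic anhydrase abundant in fat, by 1.98. Hp, haptoglobin, which neutrophils and fat both express, differed by 2.10 and was also linked to adipose. Of the 22 genes 0 were called in limma without surrogate variables or with batch as a term. Without FVB/N mouse 2 the count of adipose calls was 6, without FVB/N mouse 3 it was 9, without asymptomatic mouse 3 or 4 it was 11, and without FVB/N mice 2 and 3 it was 0.

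Among 20 salivary and lacrimal genes, 4 were called lower and 0 higher, where 0.592% and 1.34% of all genes were. Lpo, a peroxidase secreted by glands, was at 5.53, 5.88 and 9.60 in asymptomatic nodes, against 5.69, 12.35 and 9.27 in FVB/N nodes, and differed by -1.68 (SE 0.40, adjusted p = 0.0309). Klk1b22, a glandular kallikrein, differed by -1.96 and Aqp5, the water channel of salivary acini, by -1.22, and both were highest in the node of FVB/N mouse 2, at 11.02 and 11.16. Amy1, salivary amylase, was at 4.93, 9.87 and 13.20 in asymptomatic nodes, against 4.85, 13.57 and 13.08 in FVB/N nodes, and its fitted difference was -0.05 (adjusted p = 0.972). The glands' genes were thus called only in part, and the node of 1 FVB/N mouse held the highest value of each of the 4 genes named here. Of 22 pancreas genes 0 were called. Clps, pancreatic colipase, was at 12.62 and 13.75 in asymptomatic mice 5 and 6 and between 6.65 and 7.0 in the other 4, against 6.47 to 6.71 in FVB/N nodes, with a fitted difference of 0.11 (adjusted p = 0.918).

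Oxidative phosphorylation genes lay close to the adipose list in their order of mice: 2 of 29 were called higher, 19 had an unadjusted p under 0.05 in that direction, and 21 were linked to a neighbouring tissue. Over all genes the shares were 1.34%, 8.96% and 7.36%. Uqcrfs1, the iron-sulphur subunit of complex III, was at 9.86, 9.97 and 9.86 in asymptomatic mice 3, 4 and 5 and between 8.21 and 8.65 in mice 1, 2 and 6, against 8.0 to 8.86 in FVB/N nodes. Its fitted difference was 0.60 (SE 0.13, adjusted p = 0.0138). Ctsf, the lysosomal protease cathepsin F, was linked too (r = 0.86 with adipose) and was at 6.58, 7.57 and 7.79 in asymptomatic nodes, against 5.77, 6.84 and 6.62 in FVB/N nodes, overlapping only through asymptomatic mouse 1, and differed by 1.05 (SE 0.12, adjusted p = 0.000166). In spleen Ctsf was called as well, with 6.46 to 6.71 in asymptomatic and 5.91 to 6.14 in FVB/N mice (difference 0.51, adjusted p = 0.041 in limma).

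The 13 genes that passed both with and without surrogate variables included Lipo3, Rab6b, Hcrtr2 and Cd200r4 among the rises and Chil5, Dmrta1, Elovl7 and Ahsa2 among the falls. In 12 of the 13 the levels did not overlap, where 2.52% of all genes did not. The 13 were picked by these same levels, so the lack of overlap gives no further support. All 13 correlated at less than 0.7 with each of the 3 tissue lists, where 7.36% of all genes were linked. Lipo3, a gene of the lipase family, had the smallest adjusted p. Its levels were 7.28, 7.67 and 8.69 in asymptomatic nodes, against 5.47, 5.36 and 5.65 in FVB/N nodes. The fitted difference was 2.62 (SE 0.26, adjusted p = 2.46e-05), and the gene passed under 20 of 24 other settings, among them all 9 that left out 1 mouse. AI506816, known by its clone name, was at 5.32, 5.81 and 6.25 in asymptomatic nodes, against 3.59, 4.11 and 4.28 in FVB/N nodes (difference 1.78, SE 0.25, adjusted p = 0.0018), and also passed under 20 of the 24, those 9 included. Rab6b, a Rab GTPase of Golgi traffic, was at 6.78, 7.52 and 7.94 in asymptomatic nodes, against 6.41, 6.52 and 6.42 in FVB/N nodes, a difference of 1.18. The gap between the groups was narrower for Rab6b than for the other 2. A530032D15Rik, another clone-named gene, was at 10.09, 10.31 and 10.95 in asymptomatic nodes, against 8.92, 9.02 and 9.55 in FVB/N nodes, a difference of 1.22. Hcrtr2, the orexin receptor 2, was at 5.26, 5.45 and 5.97 in asymptomatic nodes, against 4.86, 4.88 and 4.28 in FVB/N nodes, a difference of 0.87. Cd200r4, an activating relative of the CD200 receptor on myeloid cells, differed by 1.05, with asymptomatic levels from 4.11 to 5.51 and FVB/N levels from 3.40 to 3.79.

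Of the 13 genes, 7 were lower in asymptomatic nodes. Chil5, a chitinase-like gene, was at 5.37, 5.74 and 6.03 in asymptomatic nodes, against 7.16, 6.92 and 6.61 in FVB/N nodes (difference -0.96, SE 0.15, adjusted p = 0.00325). Dmrta1, a transcription factor with a DM domain, was at 5.47, 6.04 and 6.50 in asymptomatic nodes, against 7.97, 7.80 and 6.69 in FVB/N nodes (difference -1.23, SE 0.20, adjusted p = 0.0045). Both were lower in every asymptomatic node than in any FVB/N node, and within the asymptomatic group both were lowest in mouse 6. Elovl7, which elongates fatty acids, was at 5.88, 6.11 and 6.31 in asymptomatic nodes, against 7.04, 7.72 and 6.84 in FVB/N nodes (difference -1.05). Rab17, a Rab GTPase of epithelial traffic, was at 5.63, 5.88 and 6.49 in asymptomatic nodes, against 6.87, 7.97 and 6.32 in FVB/N nodes (difference -0.99). It was the 1 gene of the 13 that overlapped, and it was highest in FVB/N mouse 2, whose node carried the most salivary transcripts. Atp6v1d, a subunit of the vacuolar proton pump, was at 8.71, 8.84 and 9.02 in asymptomatic nodes, against 10.18, 9.68 and 9.58 in FVB/N nodes (difference -0.68). The clone-named gene 2410017I17Rik differed by -0.56, and the remaining gene, Ahsa2, is described with the chaperones.

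**Figure D2:**
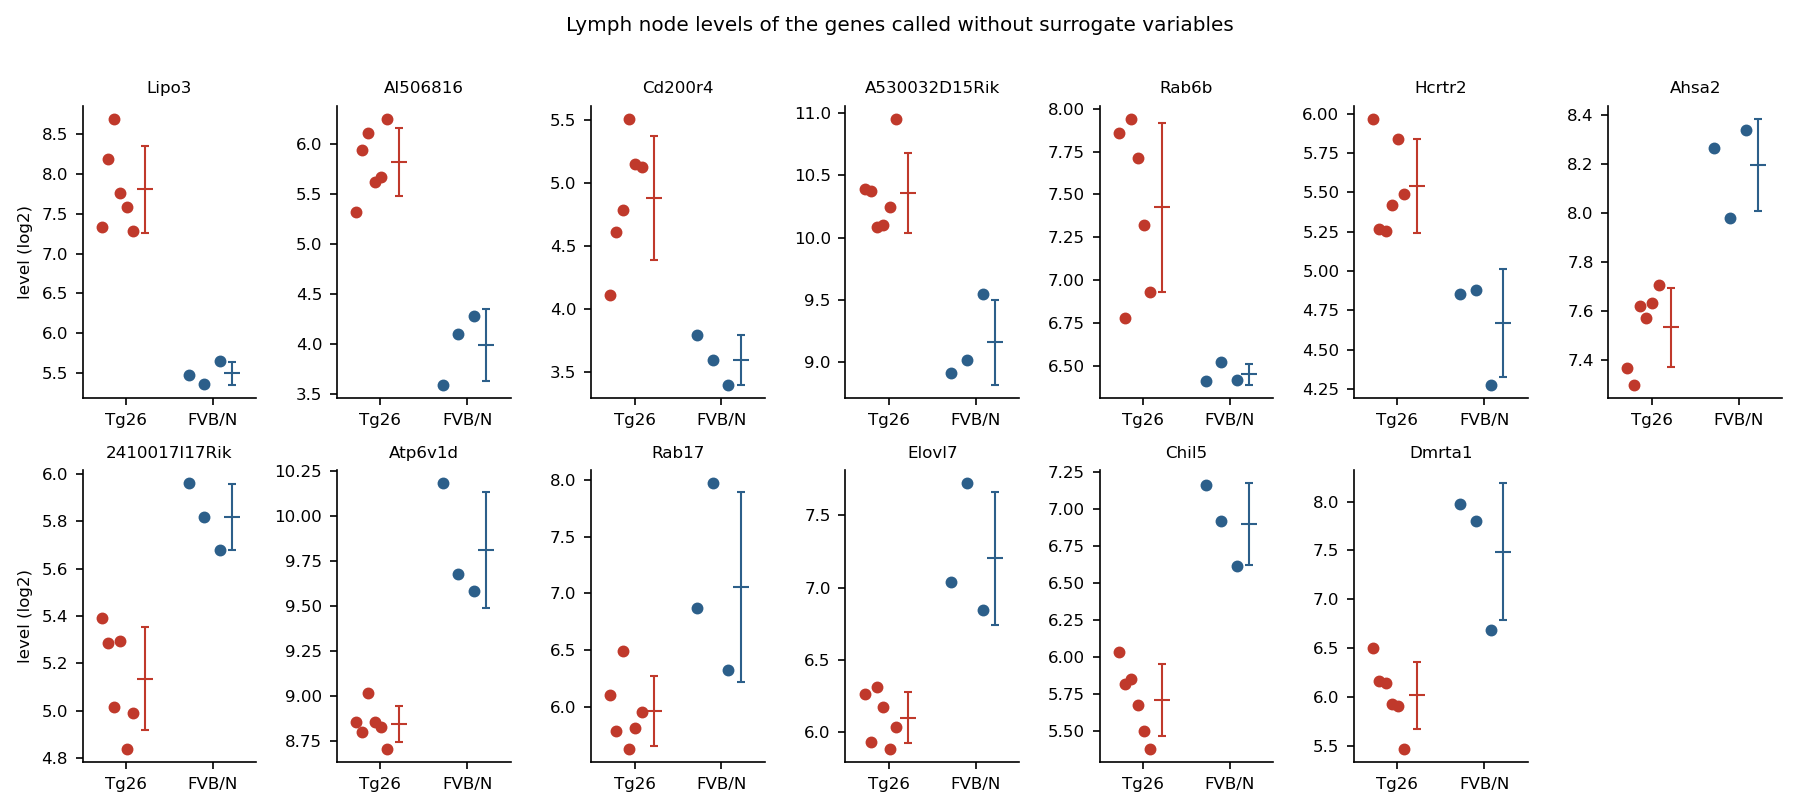
Log2 levels (vertical axis) in lymph node of the 13 genes called both with and without surrogate variables. Points are single arrays of asymptomatic Tg26 (left in each panel) and FVB/N (right), and bars are the mean ± SD. The groups do not overlap in 12 panels, and in the panel of Rab17 asymptomatic mouse 3 (6.49) lies above FVB/N mouse 3 (6.32).

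Class II antigen presentation genes were among the rises, led by the chains of the I-E and I-A molecules. H2-Ea, the alpha chain of I-E, was at 8.75, 11.78 and 12.03 in asymptomatic nodes, against 9.42, 8.91 and 9.86 in FVB/N nodes. Of the 6 asymptomatic nodes, 5 lay above every FVB/N node, and that of mouse 5 lay below all 3. The fitted difference was 2.84 (SE 0.62, adjusted p = 0.0193), the largest among the named genes outside the linked ones, and it lay between 2.35 and 3.18 with any 1 mouse left out, passing in 5 of 9 such fits. In spleen asymptomatic mouse 5 was again low in H2-Ea, at 10.30 against 12.21 to 12.43 in the other asymptomatic mice. FVB/N spleens ran from 10.59 to 11.43. H2-Aa, the alpha chain of I-A, was at 9.80, 10.35 and 10.63 in asymptomatic nodes, against 9.59, 9.74 and 9.89 in FVB/N nodes, and differed by 1.07 (SE 0.25, adjusted p = 0.0263), passing in 1 of 9 fits with a mouse left out. H2-Eb1, the beta chain of I-E, had a fitted difference of 1.95 and did not pass (adjusted p = 0.0712), with 8.27, 10.29 and 11.57 in asymptomatic nodes and 8.47, 8.06 and 8.35 in FVB/N nodes. For H2-Eb1, asymptomatic mouse 5 alone lay within the FVB/N range, and the other 5 lay above it. Cd74, the invariant chain that escorts class II molecules, had 12.49, 12.68 and 12.98 in asymptomatic nodes, against 12.57, 12.54 and 12.64 in FVB/N nodes (fitted difference 0.39, adjusted p = 0.23). Ctss, the protease that trims the invariant chain, had a fitted difference of 0.44 (adjusted p = 0.143). Over the class II list, 2 of 13 genes were called higher and 0 lower, where 1.34% of all genes were called higher. The list's median fitted difference was 0.39, its median measured difference 0.27 and that within batch A 0.09, against a fitted median of 0.02 over all genes.

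The H2 genes and the natural killer (NK) gene complex each held more than 1 called gene. Of 29 genes on chromosome 17 with an H2 symbol, 3 were called, all higher (10.3%, against 1.94% of all genes). The third was H2-Q5, a class I gene outside the classical set, at 7.92, 8.28 and 8.94 in asymptomatic nodes and 7.96, 7.37 and 7.68 in FVB/N nodes, and it differed by 1.17 (SE 0.22, adjusted p = 0.00818). Of 39 genes of the NK complex on chromosome 6, from Klrb1a to Klra2 in the annotation's order, 6 were called (15.4%), 3 higher and 3 lower. Klrb1b, an inhibitory receptor of NK cells, was at 5.10, 5.35 and 5.53 in asymptomatic nodes, against 7.17, 6.09 and 6.83 in FVB/N nodes, and did not overlap (difference -0.95, SE 0.20, adjusted p = 0.0183). In spleen it was at 4.97, 5.23 and 5.31 in asymptomatic mice and from 6.85 to 6.89 in FVB/N mice, a difference of -1.73 (adjusted p = 6.52e-05). Klra8, the activating receptor Ly49H, differed by -0.74, and Klrc2, the activating receptor NKG2C, by -0.57. With a mouse left out, Klra8 passed in 3 of 9 fits and Klrc2 in 4 of 9. Klra3, another Ly49 receptor, went the other way, at 6.16, 6.65 and 7.31 in asymptomatic nodes, against 5.97, 5.49 and 5.38 in FVB/N nodes (difference 0.92, SE 0.18, adjusted p = 0.0101). Clec7a, the beta-glucan receptor dectin-1 of myeloid cells, differed by 1.06, and asymptomatic mouse 1, at 6.16, lay within the FVB/N range of 5.84 to 6.83. Clec1b, the podoplanin receptor CLEC-2 of platelets and myeloid cells, was at 4.83 in asymptomatic mouse 1 and from 6.40 to 7.98 in the other 5, against 4.69 to 4.88 in FVB/N nodes (difference 1.56, SE 0.29, adjusted p = 0.00681). Both clusters hold near-identical copies and vary between inbred strains, so values of single H2 and Ly49 genes are uncertain. Genotypes at these clusters were not analysed here.

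**Figure D3:**
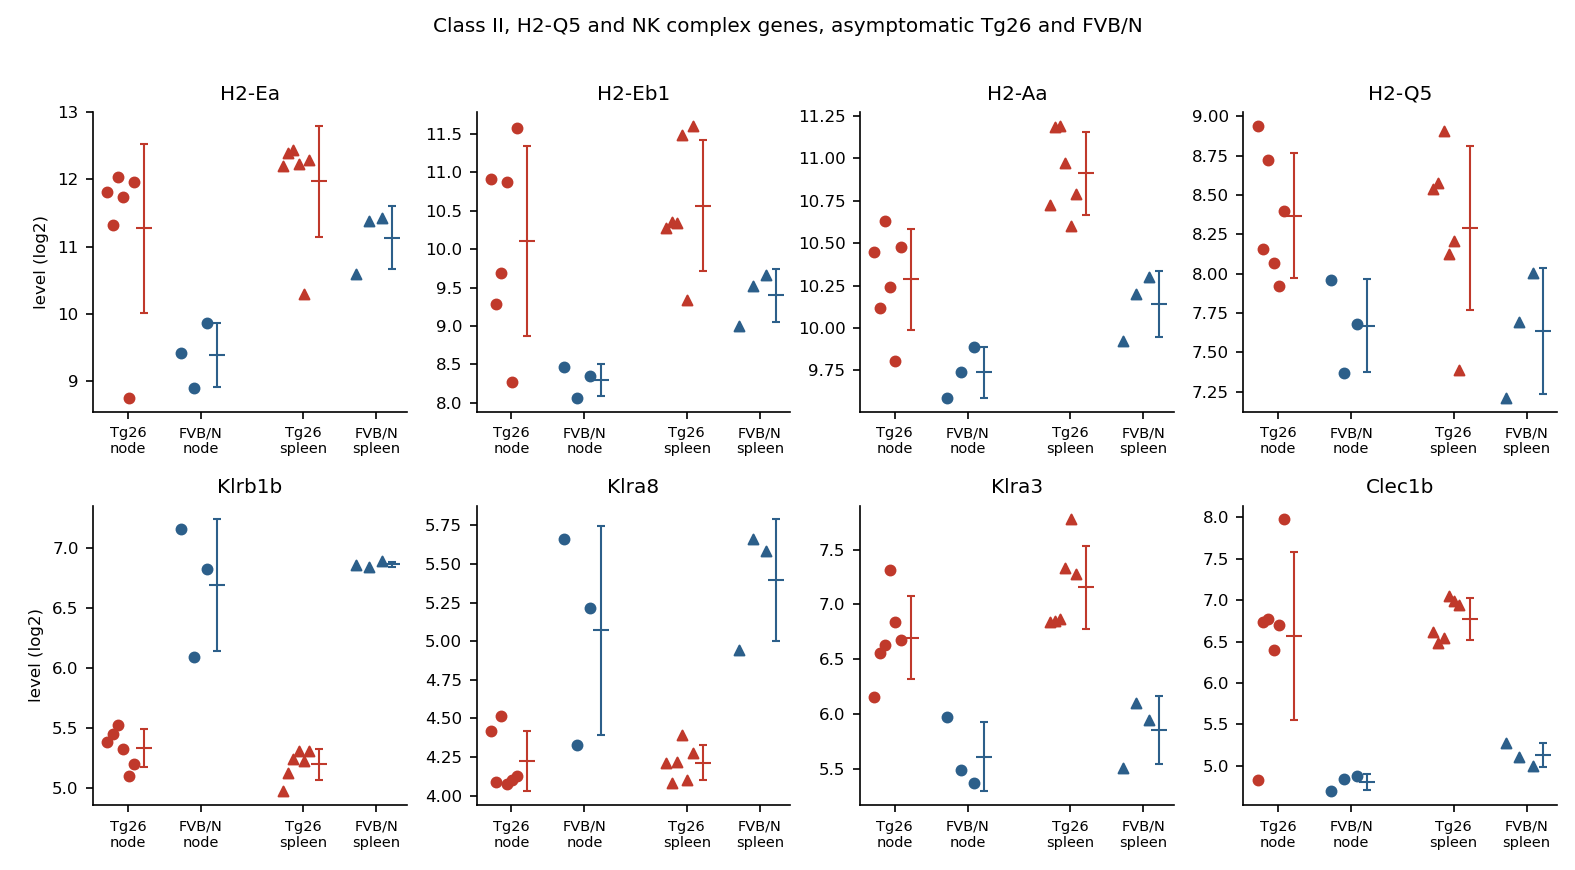
Log2 levels (vertical axis) of class II genes, H2-Q5 and NK complex genes in lymph node (circles) and spleen (triangles), with asymptomatic Tg26 left of FVB/N in each tissue. Points are single arrays and bars are the mean ± SD. Klrb1b levels do not overlap between the groups in either tissue, and 1 asymptomatic mouse, mouse 5, is low in H2-Ea in node (8.75) and in spleen (10.30).

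Hsph1, Ahsa2, Chordc1, Stip1 and Fkbp4 were called lower in asymptomatic nodes. Hsp110 and the co-chaperones of Hsp90 keep proteins folded, and heat shock factor 1 induces many of their genes through promoter elements built of repeated GAA units. Hsph1, which encodes Hsp110, was at 8.01, 8.38 and 8.49 in asymptomatic nodes, against 9.76, 8.53 and 9.31 in FVB/N nodes, without overlap (difference -1.19, SE 0.21, adjusted p = 0.00556). Ahsa2, a homologue of the activator of the Hsp90 ATPase, was at 7.30, 7.60 and 7.71 in asymptomatic nodes, against 8.27, 7.98 and 8.34 in FVB/N nodes (difference -0.70, SE 0.11, adjusted p = 0.00373). Chordc1, a co-chaperone that binds Hsp90, was at 8.87, 9.12 and 9.28 in asymptomatic nodes, against 9.94, 9.30 and 9.98 in FVB/N nodes (difference -0.73, SE 0.15, adjusted p = 0.0134). None of these 3 overlapped, but for Hsph1 and Chordc1 FVB/N mouse 2 lay just above the asymptomatic range. Stip1, which joins Hsp70 to Hsp90, differed by -0.70 and did not overlap, with 9.10 to 9.52 in asymptomatic nodes and 9.67 to 10.13 in FVB/N nodes. Fkbp4, an immunophilin of Hsp90 complexes, differed by -0.63 and overlapped. With a mouse left out, Ahsa2 passed in 9 of 9 fits, Hsph1 in 8, Chordc1 in 7, Stip1 in 4 and Fkbp4 in 2. Ahsa2, Chordc1, Stip1 and Fkbp4 were picked after their values were seen. Hspa8, the constitutive Hsp70, had a fitted difference of -0.16 (adjusted p = 0.386). Hsp90aa1, the inducible Hsp90, was at 10.85 to 11.57 in asymptomatic nodes, against 11.06 to 11.28 in FVB/N nodes (fitted difference -0.19, adjusted p = 0.608). Dnajb1, an Hsp40 co-chaperone, was at 7.49 to 8.29 in asymptomatic nodes, against 8.02 to 8.44 in FVB/N nodes (fitted difference -0.02, adjusted p = 0.98). Both overlapped, and both were named after their values were seen. Over the 27 immediate early and heat shock genes, 1 was called in each direction, where 1.34% of all genes were called higher and 0.592% lower. An unadjusted p under 0.05 was reached by 7 in the higher and 1 in the lower direction, against 8.96% and 7.02% of all genes. The list's median difference was 0.32 fitted and -0.08 measured. In spleen Hsph1 differed by -1.46 (adjusted p = 0.000417), Ahsa2 by -0.61 (adjusted p = 0.008) and Chordc1 by -0.77 (adjusted p = 0.0105), while Stip1 and Fkbp4 were not called there.

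The promoters of 2 of these genes are shown because they hold a full heat shock element, searched as GAANNTTCNNGAA on one strand and TTCNNGAANNTTC on the other, with overlapping matches counted separately. Each is the RefSeq window on GRCm38.p6 from 250 bases before to 50 after the gene's start, printed 5′ to 3′ on the gene's strand, with matches in capitals. Hsph1 (the first of its 2 windows) lies at chr5:149636287-149636586 on the minus strand and has 1 match, and Chordc1 lies at chr9:18292017-18292316 on the plus strand and has 3 matches that overlap.
Hsph1: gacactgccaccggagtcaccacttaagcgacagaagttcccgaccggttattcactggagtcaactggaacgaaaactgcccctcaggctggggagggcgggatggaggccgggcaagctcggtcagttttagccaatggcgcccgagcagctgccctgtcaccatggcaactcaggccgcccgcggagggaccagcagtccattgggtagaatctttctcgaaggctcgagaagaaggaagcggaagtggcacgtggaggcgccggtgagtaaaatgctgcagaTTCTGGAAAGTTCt
Chordc1: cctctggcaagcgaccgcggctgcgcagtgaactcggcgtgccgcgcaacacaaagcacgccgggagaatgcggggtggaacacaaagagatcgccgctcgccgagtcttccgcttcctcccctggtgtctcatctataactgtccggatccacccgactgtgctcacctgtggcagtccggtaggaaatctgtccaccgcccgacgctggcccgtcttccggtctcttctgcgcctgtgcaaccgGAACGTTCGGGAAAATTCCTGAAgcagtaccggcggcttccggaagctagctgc
The windows of Stip1, Ahsa2 and Fkbp4 held 0 matches, and 0.603% of all 32851 promoter windows held at least 1. The letters describe the windows and say nothing of whether a factor was bound in these nodes.

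Several of the 15 largest rises outside the linked genes still correlated with the adipose mean, below the limit of 0.7. Aldh1a7, an aldehyde dehydrogenase, was at 4.96, 7.78 and 8.79 in asymptomatic nodes, against 4.73, 5.37 and 4.73 in FVB/N nodes (difference 1.92, SE 0.36, adjusted p = 0.00741). Its correlation with the adipose mean was 0.64, and asymptomatic mice 1 and 2, at 5.08 and 4.96, were not above FVB/N mouse 2. Mmd, a membrane protein tied to macrophage maturation, was at 8.28, 9.58 and 10.74 in asymptomatic nodes, against 8.40, 8.33 and 8.35 in FVB/N nodes (difference 1.43, r = 0.69 with adipose). The others were Paqr9, a progestin and adiponectin receptor family member (1.66), Rasd1, a Ras-like protein induced by glucocorticoids (1.64), Depp1, a target of FoxO factors (1.61), Reep6, which shapes the endoplasmic reticulum (1.30), and Clic5, an intracellular chloride channel protein (1.21). Their correlations with adipose ran from 0.44 for Depp1 to 0.67 for Reep6, and the part of adipose transcripts in these differences was not tested gene by gene. With batch and the salivary, pancreas and adipose means as terms in place of surrogate variables, 2 genes passed in the whole table.

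The other rises were genes of vessels, myeloid cells and signalling. Jam2, a junctional adhesion molecule of endothelium, was at 8.16, 9.52 and 9.86 in asymptomatic nodes, against 6.64, 8.45 and 8.36 in FVB/N nodes. Asymptomatic mouse 1 lay below FVB/N mice 2 and 3 but above FVB/N mouse 1, and the fitted difference was 1.74 (SE 0.30, adjusted p = 0.00526, r = 0.56 with adipose). Jam2 passed with each mouse left out, and in spleen it differed by 2.88 (adjusted p = 1.4e-05). Rgs18, a regulator of G protein signalling in platelets and myeloid cells, was at 6.81, 7.81 and 8.49 in asymptomatic nodes, against 5.78, 6.66 and 7.21 in FVB/N nodes (difference 1.99, SE 0.37, adjusted p = 0.00731), with overlapping ranges. Ccl8, a chemokine of tissue macrophages, was at 5.88, 8.01 and 10.32 in asymptomatic nodes, against 5.71, 7.47 and 7.37 in FVB/N nodes (difference 1.87, adjusted p = 0.0287), and correlated at 0.68 with the salivary and 0.64 with the adipose mean. Mpeg1, the macrophage pore protein perforin-2, differed by 1.33 and Cmklr1, the receptor for chemerin on macrophages and other cells, by 1.13. Both were low in mouse 1 of each group, with 9.0 and 7.21 in the asymptomatic node and 8.61 and 6.50 in the FVB/N node. Dusp1, a phosphatase that shuts off MAP kinases, had a fitted difference of 1.32 (adjusted p = 0.0144) beside a mean difference of the measured levels of 0.27. Unlike Jam2, these genes did not pass in all 9 fits with a mouse left out. Cmklr1 passed in 8, Rgs18 in 7, Dusp1 in 6, Ccl8 in 3 and Mpeg1 in 2.

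The 15 largest falls outside the linked genes divided into those highest in the salivary-rich node of FVB/N mouse 2 and the rest. Cldn10, a claudin of epithelial tight junctions, was at 5.40, 5.80 and 6.66 in asymptomatic nodes, against 5.75, 9.34 and 6.42 in FVB/N nodes (difference -1.39, SE 0.36, adjusted p = 0.0474). Slc10a5, of the bile acid transporter family, was at 4.43, 4.59 and 5.26 in asymptomatic nodes, against 4.65, 7.87 and 5.02 in FVB/N nodes (difference -1.38), and for both genes FVB/N mice 1 and 3 lay within the asymptomatic range. Klk1b7-ps, a kallikrein pseudogene (-1.06), Mfsd6, a membrane transporter (-0.84), Magi3, a junction scaffold (-0.83), Tmtc2, an endoplasmic reticulum protein (-0.78), and Aldh18a1, an enzyme of proline synthesis (-0.74), were also highest in that node, though for Mfsd6, Magi3 and Tmtc2 every FVB/N node lay above every asymptomatic one. Car12, a membrane carbonic anhydrase, was at 5.47, 6.06 and 7.18 in asymptomatic nodes, against 7.79, 8.73 and 6.87 in FVB/N nodes (difference -1.36, SE 0.31, adjusted p = 0.0253), again highest in FVB/N mouse 2 but above the asymptomatic range in FVB/N mouse 1 too. Samd3 differed by -0.75 and was highest in FVB/N mouse 1, at 7.52. Without FVB/N mouse 2, 6 of the 30 named rises and falls passed.

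Of 30 macrophage genes 0 were called in limma, and 14 had an unadjusted p under 0.05 in the higher direction, where 8.96% of all genes did. The list's median fitted difference was 0.73, its median measured difference 0.65 and that within batch A 0.33, against 0.02, -0.01 and 0.01 over all genes. Marco, a scavenger receptor of sinus macrophages, had the smallest adjusted p (0.0798), with 7.28 in asymptomatic mouse 1 and 9.40 to 10.86 in the other 5, against 6.89, 8.27 and 8.94 in FVB/N nodes. Mrc1, the mannose receptor, had 6.44 in asymptomatic mouse 1 and 9.75 to 10.23 in the others, against 6.24, 8.69 and 9.52 in FVB/N nodes (fitted difference 1.33, adjusted p = 0.116). C1qb, a chain of complement C1q, had a fitted difference of 0.95 (adjusted p = 0.127), and Csf1r, the receptor that macrophages need to survive, one of 1.14 (adjusted p = 0.139). Asymptomatic mouse 1 lay within the FVB/N range for Marco, Mrc1, C1qb and Csf1r, while the other 5 lay above the whole FVB/N range for Marco, Mrc1 and Csf1r. In spleen 7 of the 30 were called higher, where 0.306% of all genes were. Among the 7 were Mrc1 (difference 2.09, adjusted p = 0.0157) and C1qb (1.50, adjusted p = 0.0189). The difference between node and spleen passed for 0 of the 30 in limma.

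The lists of vessel and matrix genes held 1 call between them. Of 24 endothelial genes 1 was called, Cldn5, the claudin of endothelial junctions, at 8.41, 9.27 and 9.73 in asymptomatic nodes, against 7.72, 8.54 and 9.04 in FVB/N nodes (difference 0.81, SE 0.21, adjusted p = 0.0468), and 12 had an unadjusted p under 0.05 in the higher direction. Of 15 lymphatic endothelial genes 0 were called in limma and 7 had an unadjusted p under 0.05, and Flt4, the receptor of lymphatic growth, had a fitted difference of 0.68 (adjusted p = 0.105). Of 29 collagen and matrix genes 0 were called and 12 had an unadjusted p under 0.05. All of these were in the higher direction, where 1.34% of all genes were called and 8.96% had such a p. Col4a1 and Col4a2, the chains of basement membrane collagen, had fitted differences of 0.56 and 0.62 (adjusted p = 0.0641 and 0.0608). All 4 genes named here were lowest in the node of FVB/N mouse 1 and, among asymptomatic nodes, in that of mouse 1. The median fitted differences of the endothelial, lymphatic and collagen lists were 0.37, 0.45 and 0.50, and the median measured differences within batch A were 0.22, 0.29 and 0.18.

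Genes of the T and B lineages were not called. Of 24 T lineage genes and 24 B lineage genes 0 passed in limma. At an unadjusted p under 0.05 there were 0 and 3, where 16% of all genes had such a p. The median fitted differences were 0.09 and 0.14, beside median measured differences of -0.39 and 0.07. Trat1, an adaptor of the T cell receptor complex, had the smallest adjusted p of the T list (0.375), and Cd72, a B cell co-receptor, that of the B list (0.207). Of 23 cytotoxic and NK genes Klra8 alone was called, where 1.94% of all genes were. Il4, the cytokine of helper T cells, was at 4.94, 5.14 and 5.47 in asymptomatic nodes, against 5.79, 5.67 and 5.65 in FVB/N nodes, and fell by 0.60 (SE 0.14, adjusted p = 0.0279). These levels all lay under the lowest array median, 6.67, and Il4 passed in 3 of 9 fits with a mouse left out. Ccr6, a chemokine receptor of B cells and helper T cells, differed by 0.78 in the fit (SE 0.15, adjusted p = 0.0084) beside overlapping levels of 8.03 to 8.60 in asymptomatic nodes and 7.54 to 8.33 in FVB/N nodes. Ccr6 passed in 2 of 9 fits with a mouse left out. Ly6d, a surface marker of B lineage precursors and plasmacytoid dendritic cells, differed by -1.21 (SE 0.23, adjusted p = 0.00801), and in the dendritic list it was 1 of 2 calls. The levels of Ly6d overlapped, from 8.17 to 8.49 in asymptomatic mice 1 to 3 and from 9.38 to 10.45 in mice 4 to 6, against 9.27 to 10.14 in FVB/N nodes, and within batch A alone the mean measured difference was -1.33. Ly6d was one of the linked genes (r = 0.73 with the pancreas mean), and the part of pancreas transcripts in its difference was not tested. The other call was Epcam, an epithelial adhesion molecule that Langerhans cells also carry (-1.06), which correlated at 0.86 with the salivary mean.

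Interferon, proliferation and HIV host factor genes held 0 calls in limma. Of 31 interferon response genes 0 had an unadjusted p under 0.05, where 16% of all genes had one, and the median fitted difference was 0.02. Rsad2, the antiviral enzyme viperin, was at 10.68 in asymptomatic mouse 6 and from 5.88 to 6.98 in the other 5, against 6.21 to 6.79 in FVB/N nodes (fitted difference 0.63, adjusted p = 0.535). The same node had the highest mean of erythroid and platelet genes, 9.28, against 6.69 to 7.02 in the other asymptomatic nodes and 6.53 to 6.62 in FVB/N nodes. In spleen Rsad2 was called, with 8.72 to 9.70 in asymptomatic mice and 7.23 to 8.37 in FVB/N mice (difference 1.92, adjusted p = 0.0359), and the difference between node and spleen did not pass (-1.30, adjusted p = 0.444). Of 37 proliferation genes 3 had an unadjusted p under 0.05, all lower, a share near the 7.02% of all genes in that direction. Mcm3, a subunit of the replicative helicase, had the smallest adjusted p of the list (fitted difference -0.34, adjusted p = 0.211). Of 26 genes of ribosome biogenesis that Myc induces, 8 had an unadjusted p under 0.05, all lower, against the same 7.02% of all genes. Nop56, a core nucleolar protein, was at -0.34 (adjusted p = 0.0851). Of 14 cellular cofactors of HIV-1, Ccnt1, the cyclin T1 through which Tat drives viral transcription, had a fitted difference of -0.43 (adjusted p = 0.239), and Psip1, the integrase tether LEDGF, one of -0.31 (adjusted p = 0.355). Mouse cyclin T1 works poorly with Tat.

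**Figure D4:**
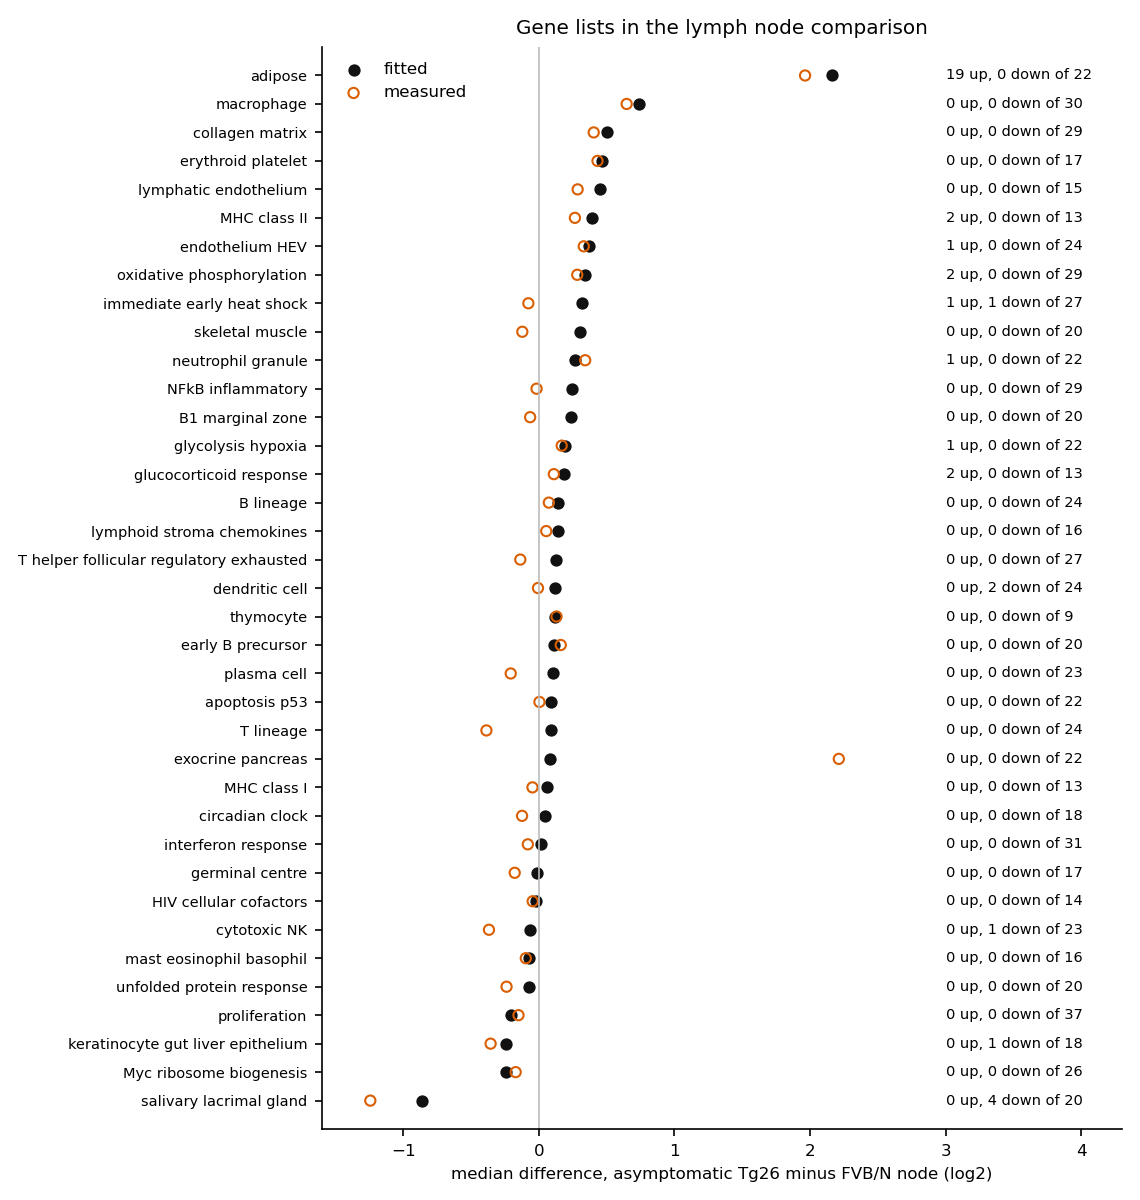
Median difference per gene list, asymptomatic Tg26 minus FVB/N node (horizontal axis, log2), for the fitted difference (filled) and the difference of the measured means (open), with 1 list per line. The adipose list has the highest fitted median (2.16), the pancreas list moves between a measured 2.21 and a fitted 0.09, and the interferon list lies at 0.02.

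The spleens of the same mice allow a look at which node differences recur in a second organ, which carried little adipose transcript: the adipose mean ran from 6.59 to 6.82 in asymptomatic spleens and from 6.53 to 6.64 in FVB/N spleens. In spleen 123 genes were called (0.617%), 61 higher (0.306%) and 62 lower (0.311%). In both tissues 27 genes were called, 6.99% of the node calls and 22% of the spleen calls, and all 27 had the same direction. As the spleens came from the same mice and batches, this is no second set of animals. The 27 included Lipo3 (spleen difference 1.85), AI506816 (1.80), Hcrtr2 (1.50), Rab6b (0.86), Atp6v1d (-0.74) and Ahsa2 (-0.61), which are 6 of the 13 genes called without surrogate variables, and also Jam2, Clec1b, H2-Q5, Klra3, Klra8, Klrb1b, Ly6d, Hsph1 and Chordc1. Of the 27, 25 lay outside the linked genes, and the others were Ly6d and Ctsf. Among the 22 adipose genes 0 were called in spleen, with a median difference of -0.23. Levels of 3 of them still did not overlap there. Pparg ran from 6.58 to 7.69 in asymptomatic and 6.40 to 6.50 in FVB/N spleens, Gpd1 from 6.79 to 7.38 and 6.05 to 6.25, and Car3 from 6.21 to 6.33 and 5.71 to 6.09.

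**Figure D5:**
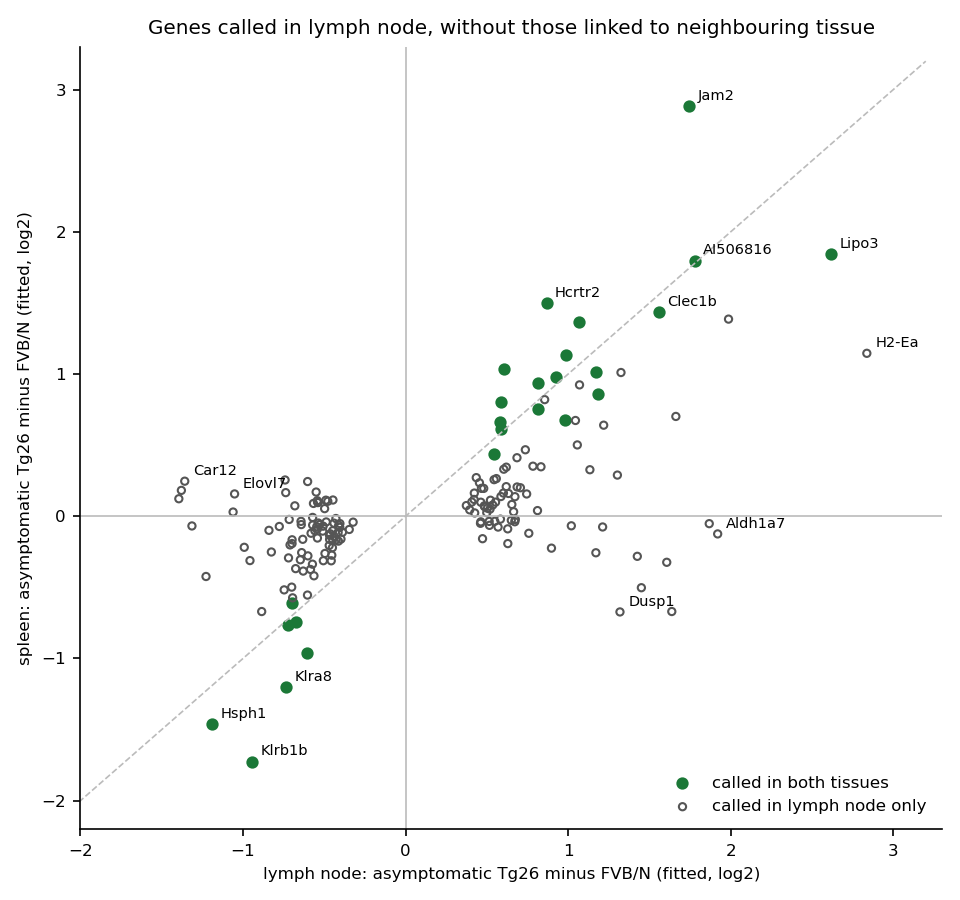
Fitted log2 difference, asymptomatic Tg26 minus FVB/N, in lymph node (horizontal axis) against spleen (vertical axis), for the 181 node calls outside the genes linked to neighbouring tissue. Each point is 1 gene, filled where it was also called in spleen, and the dashed line marks equal differences. Lipo3 (2.62 in node, 1.85 in spleen) and Jam2 (1.74 and 2.88) lie high on both axes.

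The difference between node and spleen was tested directly as an interaction. It passed for 50 genes (0.251%), 45 with the node difference more positive than the spleen difference and 5 with it more negative (0.226% and 0.0251%). Of the 45, 25 were linked to adipose, among them Pck1, an enzyme of glycerol and glucose synthesis (3.27), Elovl3, a fatty acid elongase of brown fat (2.70), Cidec, which enlarges fat droplets (2.65), and Plin1, which coats them (2.51). Atf3, a stress-induced transcription factor, was the largest of the rest, at 2.96. Its node levels were 6.65, 7.53 and 8.74 in asymptomatic mice, against 7.80, 6.90 and 7.41 in FVB/N mice, and its spleen levels were 7.02, 7.79 and 8.30 in asymptomatic mice, against 8.81, 11.08 and 11.01 in FVB/N mice. The spleen difference was -2.0 (adjusted p = 0.0169), and the node difference, 0.96, did not pass (adjusted p = 0.255). Of 27 immediate early and heat shock genes 6 were more positive in node, 5 were called lower in spleen, and in node 1 was called higher (Dusp1) and 1 lower (Hsph1). Klf4, a transcription factor of the immediate early set, had a fitted node difference of 1.06 (adjusted p = 0.0502) beside a measured difference of 0.21, and Fos had one of 1.62 (adjusted p = 0.0522) beside a measured difference of 0.07. The 5 genes more negative in node were Sh3bgrl2 (-1.35), Elovl7 (-1.21), the microRNA gene Mir1839 (-1.17), the zinc finger gene Zfp300 (-0.65) and Pygo2, a co-activator of Wnt signalling (-0.58). In limma 0 interactions passed without surrogate variables, where 612 genes had an unadjusted p under 0.05, and 0 passed without asymptomatic mouse 3, 4 or 5 or without FVB/N mouse 2 or 3. Without asymptomatic mouse 1 the count was 279, without FVB/N mouse 1 it was 226, and without asymptomatic mouse 2 it was 10.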

How the data were processed

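Total RNA of lymph node and spleen from 15 mice was measured on 30 arrays, 1 per tissue and mouse, grouped by state and tissue in the labels' titles and descriptions. One lymphoma spleen, outside this comparison, carried the disease code of the controls and was kept by its title. The deposited values are log2 levels of probe sets, which the authors normalized with fRMA, the frozen form of robust multiarray analysis, as the series' design text states. Settings and software versions are not given in the sources used here. Values ran from 2.07 to 14.43, with array medians of 6.67 to 6.89. Scanner files were not used, so signal over background was not assessed.

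Of 35556 probe sets with values, 21789 had 1 gene symbol in the platform annotation, 1621 had several and 12146 were not listed. RefSeq (GRCm38.p6) matched 21698. A gene was represented by its probe set with the highest mean, which left 19938 genes and no filter. All 30 arrays entered 1 fit in limma 3.58.1 (R 4.3.3, lmFit, contrasts.fit, eBayes) with 6 groups and 6 surrogate variables, computed with an iteratively re-weighted algorithm (5 iterations). Their number came from 20 permutations of residuals at a p limit of 0.1. A call is an adjusted p (Benjamini-Hochberg, all 19938 genes) under 0.05. A fitted difference and its SE come from this fit, and a measured difference is that of group means. The spread behind the p-values is 1 estimate per gene over all 30 arrays, both tissues and the lymphoma mice included. It takes the node and spleen of a mouse as independent and is not the spread of the compared nodes alone. The labels do not say that mice came from separate litters or cages, so the p-values speak only for these mice.

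Gene lists (39, with 803 of 878 entries measured) and comparisons were chosen with earlier results of these data known. No list was tested as a set. Named were the 15 largest rises and falls among calls outside the linked genes with the same sign in measured means, also within batch A, leaving out clone-named or predicted genes, small RNAs and receptor segments. Also named were up to 4 genes per list, of which a choice is printed, and the 5 largest interactions of each sign. The 13 genes called without surrogate variables, the co-chaperones, the other NK complex genes, Cmklr1, Ccr6, Il4 and Ctsf were added after values were seen. In data simulated from the real means and spread of the node comparison, over 19938 genes, the fit recovered 31.3% of 67 genes changed by 0.5 log2 units, 82.1% of 67 changed by 1 and 100% of 66 changed by 2, with 11 false calls among 19738 unchanged genes. These rates hold for that setting only. How they carry over to nodes that differ in batch and neighbouring tissue was not tested, so they give no rate of false calls for the real nodes.

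Mouse numbers were checked as pairs: over the batch A nodes, same-numbered asymptomatic and FVB/N arrays deviated together at r = 0.756, 0.138 and 0.161, which meets the limit of 0.1 for every pair, though asymptomatic mouse 2 with FVB/N mouse 3 (0.487) and asymptomatic mouse 3 with FVB/N mouse 2 (0.561) correlated more. Nothing in the labels says that a number marks a shared litter or day beyond the batch.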

Additional observations from a re-analysis of the deposited data

Results flagged for a closer look

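Dixon's test for a single outlying mouse was run on 112 groups of levels and found 15 outlying values, where chance gives about 1 in 20 groups. The node of asymptomatic mouse 1 was the low value in 8 of the 15, all genes of macrophages, myeloid cells or vessels. In that node Mrc1 was at 6.44 against 9.75 to 10.23 in the other 5, Csf1r at 7.66 against 10.63 to 10.93, C1qb at 8.29 against 9.81 to 10.62, Mpeg1 at 9.0 against 10.84 to 11.04, and Ctss at 9.66 against 10.56 to 10.98. Clec7a there was at 6.16 against 7.50 to 8.12, Jam2 at 8.16 against 9.43 to 9.86, and Flt4 at 6.44 against 7.69 to 8.06. The node of FVB/N mouse 1 was low in the same lists.

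Other asymptomatic nodes each held fewer such values. Mouse 6 was high in Rsad2 (10.68, against 5.88 to 6.98 in the other 5), A530032D15Rik (10.95, against 10.09 to 10.39) and Slc10a5 (5.26, against 4.43 to 4.74). Mouse 3 was high in Lpo (9.60, against 5.53 to 6.92) and Epcam (7.50, against 6.15 to 6.54). Mouse 5 was low in H2-Ea (8.75, against 11.32 to 12.03), and its spleen was low too (10.30, against 12.21 to 12.43 in the other asymptomatic spleens). Mouse 2 was low in Fkbp4 (8.48, against 8.85 to 9.05).

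The asymptomatic against FVB/N difference itself differed between node and spleen (interaction, limma with adjusted p under 0.05) for 10 genes given above. Node minus spleen was 3.27 for Pck1, 2.96 for Atf3, 2.70 for Elovl3, 2.65 for Cidec and 2.51 for Plin1. It was -1.35 for Sh3bgrl2, -1.21 for Elovl7, -1.17 for Mir1839, -0.65 for Zfp300 and -0.58 for Pygo2.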

How the results depend on the processing

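The 386 node calls came to 13 without surrogate variables, 8 with batch as a term, 2 with batch and the salivary, pancreas and adipose means as terms, 148 with 3 surrogate variables and 5 within batch A. They came to 10 over the 18 arrays of asymptomatic and FVB/N mice and to 0 over the 9 or the 6 batch A node arrays alone, where 1049 and 453 genes had an unadjusted p under 0.05 in limma. With mouse number as a replicate block over those 6 arrays 0 passed and 987 had an unadjusted p under 0.05. As 0 passed without the block, there was no call for it to remove. The random block for mouse gave 285, all among the 386, the filter on low levels 422 and the mean of probe sets 361. Leaving out 1 mouse gave 40 to 782, and leaving out FVB/N mice 2 and 3 (chosen after seeing the data, as were the other settings without 2 mice) gave 0. The sign of the 386 held for 383 without surrogate variables, for 256 with batch and tissue means as terms, for 362 without FVB/N mice 2 and 3, and for all of those tested with batch as a term, within batch A and with any 1 mouse left out. These fits share arrays with the fit that picked the 386, so a kept sign gives no separate support. The 123 spleen calls came to 23 without surrogate variables, 24 with batch, 5 within batch A and 14 to 252 with 1 mouse left out. The 50 interactions came to 0 without surrogate variables, with batch or within batch A (612, 871 and 684 at an unadjusted p under 0.05 in limma), 102 with mouse as a random block, 18 with the filter and 0 to 279 with 1 mouse left out. The batch comparison within asymptomatic nodes gave 2218 calls and 96 from the 6 arrays alone. The cause of these shifts was not tested.

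Signs turned for few named genes. With batch and tissue means as terms Aldh1a7 was at -0.053, Amy1 0.28, Clps -0.069, Gpd1 -0.12, Adipoq -0.23 and Hp -0.012. Amy1 was also at 0.75 with 3 surrogate variables, 0.074 with the mean of probe sets and, with 1 mouse left out, between -1.80 and 0.47, positive only without FVB/N mouse 3. Clps lay between -0.12 (without FVB/N mouse 3) and 0.45 with 1 mouse left out, was at -0.04 without asymptomatic mouse 2, and at -0.37 without FVB/N mice 2 and 3, where Ccl8 was at -0.21 and Tfcp2l1, of salivary ducts, at 0.049. Hsp90aa1 was at 0.063 without surrogate variables, over the 9 node arrays and over the 18 arrays, and Dnajb1 lay between -0.120 and 0.047 with 1 mouse left out, positive in 6 of 9 such fits. Probes near background could not be told from others.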
